A study of Rattus norvegicus with 6 samples.

Results

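The axon and vascular guidance genes are the ligands and receptors of the semaphorin-plexin, ephrin-Eph, netrin and Slit-Robo systems, and their differentially methylated regions (DMRs) were collected from the annotated DMR table of hippocampal brain microvascular endothelial cells (BMECs). Members were chosen by gene symbol: semaphorins, plexins A to D, ephrins, Eph receptors, netrins and netrin-Gs, Unc5 receptors, Slit1 to Slit3, Robo1 to Robo3, Dcc, Neo1, Rgma, Rgmb and Draxin. The rule found 126 regions in 51 genes, of 24862 annotated regions in all and of 12262 annotated to a gene. The RefSeq gene table of the GRCr8 assembly holds 72 protein-coding genes that meet the rule, so 21 of them had no listed region. With symbols matched, 25.9% of all 23154 protein-coding RefSeq genes had a listed region and 70.8% of the guidance genes did. A gene of greater length offers more cytosines in which a region can be listed, gene lengths on the build of the tables were not used here, and genes named differently in the sources lower the share of all genes, so these shares are not a like comparison. A region was counted once for its position and cytosine context.

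The cells came from male Sprague-Dawley rats, 6 weeks old when purchased per the study's methods. Rats of the CUMS group went through 8 weeks of chronic unpredictable mild stress, that is, a daily stressor drawn at random, and rats of the Ctrl group stayed undisturbed in their home cages. CD45-/CD31+ cells were sorted from the hippocampus of both groups, and each group held 3 samples. Whether a sample was 1 rat or a pool is not stated in the sources used here.

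For every region the tables give 1 methylation level for CUMS and 1 for Ctrl, in which the samples were combined. Replicate errors, intervals and tests could therefore not be given, the read depth of a single region is not in the tables, and whether a difference exceeds the variation between rats cannot be told. Members are described beside all regions annotated to a gene, without a test. Levels were listed only at regions that differ, so marker genes could not be used to check the identity of the sorted cells. In the text, a level is the mean methylation that the authors deposited for a region and group, given in percent. How this mean was formed from the cytosine calls is not stated in the sources used here. A difference is CUMS minus Ctrl in percentage points, and H in CHG and CHH is any base except G. A region higher in CUMS is called hypermethylated and a region lower in CUMS hypomethylated.

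Guidance ligands are secreted or displayed on cell surfaces, and a cell that carries the matching receptor is attracted or repelled by them. The systems are best known from growing axons, and blood vessels use the same molecules: plexins and Eph receptors position sprouts and separate arteries from veins, Unc5b and Robo receptors act on endothelial tip cells, and netrin 4 is a component of vascular basement membranes. CG methylation is usually low in CpG islands, many of which lie at gene starts, and high in the CG sites between them.

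The starts of 4 genes are shown because a CG region annotated to their promoter or transcription start site (TSS) was listed, and because they span the range of CG density found there. The sequences are RefSeq promoters of the GRCr8 assembly, from 250 bases before to 50 bases after the gene start, written 5′ to 3′ with every CG in capitals. The listed regions are given on mRatBN7.2, so where a region falls within these letters was not determined.
Epha8: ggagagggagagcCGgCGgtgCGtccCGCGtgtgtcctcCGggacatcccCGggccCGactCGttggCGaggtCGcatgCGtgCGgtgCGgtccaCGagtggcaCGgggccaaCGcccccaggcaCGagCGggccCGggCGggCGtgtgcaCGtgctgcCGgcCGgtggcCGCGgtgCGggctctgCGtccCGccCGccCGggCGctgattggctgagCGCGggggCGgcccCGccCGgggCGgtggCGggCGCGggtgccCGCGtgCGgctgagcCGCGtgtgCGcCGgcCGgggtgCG
Neo1: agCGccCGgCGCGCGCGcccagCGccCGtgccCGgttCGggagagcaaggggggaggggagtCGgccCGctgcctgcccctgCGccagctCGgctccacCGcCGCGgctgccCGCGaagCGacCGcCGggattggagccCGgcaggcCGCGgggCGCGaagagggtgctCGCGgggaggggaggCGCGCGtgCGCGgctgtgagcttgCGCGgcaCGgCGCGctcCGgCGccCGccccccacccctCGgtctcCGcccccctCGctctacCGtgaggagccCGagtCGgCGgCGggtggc
Ntn4: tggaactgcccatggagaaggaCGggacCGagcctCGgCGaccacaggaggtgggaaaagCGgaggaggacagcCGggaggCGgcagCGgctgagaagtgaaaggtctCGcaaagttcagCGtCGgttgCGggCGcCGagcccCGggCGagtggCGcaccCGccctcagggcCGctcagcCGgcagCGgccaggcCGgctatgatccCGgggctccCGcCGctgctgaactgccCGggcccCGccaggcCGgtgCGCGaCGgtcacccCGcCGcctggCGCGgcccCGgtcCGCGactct
Sema5b: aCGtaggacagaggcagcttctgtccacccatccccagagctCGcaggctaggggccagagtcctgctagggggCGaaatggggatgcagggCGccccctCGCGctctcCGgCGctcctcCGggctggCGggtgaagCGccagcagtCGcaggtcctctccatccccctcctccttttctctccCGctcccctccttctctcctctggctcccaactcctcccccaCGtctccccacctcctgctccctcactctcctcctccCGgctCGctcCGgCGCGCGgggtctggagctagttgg
The Epha8 sequence lies at chr5:154476917-154477216 (minus strand) and held 51 CG sites. The Neo1 sequence lies at chr8:68322103-68322402 (minus strand) and held 50 of them. For Ntn4 the window is chr7:30073387-30073686 (plus strand), with 38 CG sites. Sema5b, at chr11:78730540-78730839 (minus strand), had the lowest number among the genes shown, 20.

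A promoter or TSS held 10 of the 36 CG regions of guidance genes (27.8%, beside 37.2% of all CG regions annotated to a gene). Introns alone held 17 (47.2%, beside 34.4%). In shares by feature, a member counts by its guidance gene alone and a background region by any gene. Of the 9 genes with a promoter or TSS CG region, 8 had a RefSeq promoter entry (Plxna4 had none). Their median was 28 CG sites, compared with a median of 16 over 51 other guidance promoters and of 7 over all 33469 RefSeq promoters. The GC box letters GGGCGG, searched on both strands, were present in 6 of the 8, in 57.6% of the 59 guidance promoters and in 33.1% of all promoters. Matches of this kind describe the letters only. The 8 promoters were chosen for a listed CG region, and this choice itself favours promoters rich in CG. The promoters of all genes with such a region were not counted, so the higher numbers are not read as a result.

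Most regions of guidance genes were higher in CUMS. Of the 126 regions, 103 were hypermethylated and 23 hypomethylated, which gives 81.7% hypermethylated beside 78.1% of all regions annotated to a gene. Among the 36 CG regions, 35 were hypermethylated (97.2%, beside 87.7% of all CG regions annotated to a gene). Of the 38 CHG regions, 26 were hypermethylated (68.4%, beside 69.3%), and of the 52 CHH regions 42 were (80.8%, beside 77.5%). The shares in the CHG and CHH contexts thus lay within a few points of the background, and the CG share lay above it by the largest margin of the contexts. The CG members lay more often in CpG islands (86.1%, beside 69.5%). In islands, 97.8% of all CG regions annotated to a gene were hypermethylated. The part of this mix in the CG margin was not tested.

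**Figure D1:**
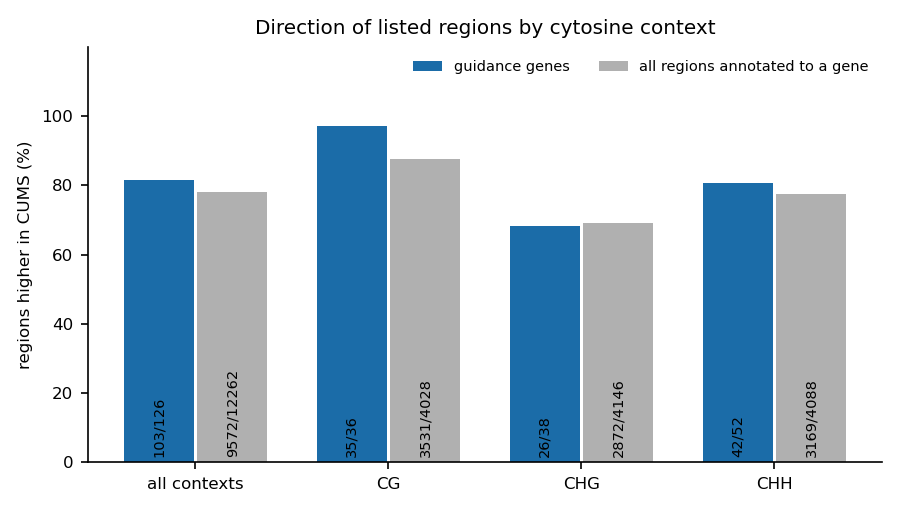
Percentage of listed regions with a higher level in CUMS than in Ctrl, for guidance genes (blue) and for all regions annotated to a gene (grey), by cytosine context. The numbers in the bars are hypermethylated regions over all regions of that kind. The widest gap between the bars is in the CG context, 97.2% against 87.7%. In that context more of the guidance regions lie in CpG islands (86.1% against 69.5%).

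Most differences were below 10 points. In hypermethylated CG regions the median was 18.2% for CUMS and 6.19% for Ctrl, and the median difference was 11.6 points (13.1 points over all hypermethylated CG regions annotated to a gene). At least 10 points were reached by 27 of the 36 CG regions (75%, background 70.1%) and by 41 of all 126 members (32.5%, background 33.2%). A limit of this size is the one that the methods of the study name for a DMR, and the deposited list was not cut at it. Below it lay 85 of the 126 members (67.5%). At or above it 38 hypermethylated and 3 hypomethylated regions were found. The smallest difference among the members was 2.11 points in Epha3, close to the smallest in the list, 2.00 points. At least 20 points were reached by 10 regions, each in a different gene: CG regions of Sema4c, Unc5b, Robo1, Sema3f, Sema7a, Plxna4, Efna3, Unc5c and Robo2, and a CHH region of Epha6. Of these, the Robo2 region was the hypomethylated one.

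The CG regions fell into separate ranges of level by their position. In CpG islands lay 31 of the 36 (86.1%, beside 69.5% of all CG regions annotated to a gene), and all 31 were hypermethylated (97.8% of the island CG regions annotated to a gene were). Their levels ran from 3.54% to 9.55% in Ctrl and from 8.80% to 35.4% in CUMS, so the groups' ranges overlapped only from 8.80% to 9.55%. These ranges are over regions, not animals. Regions were listed only where the groups differ, so little overlap comes with the selection. The ratio of CUMS to Ctrl in a region had a median of 2.92 and ran from 1.88 to 5.01, beside a median of 2.75 for all hypermethylated island regions annotated to a gene. The other 5 CG regions lay in open sea, the sequence away from islands, and were already between 48.9% and 92.3% methylated in Ctrl. Of these, 4 were hypermethylated and 1 hypomethylated. The open sea regions held 4 to 10 cytosines each and the island regions 9 to 120, so the open sea levels rest on fewer sites.

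**Figure D2:**
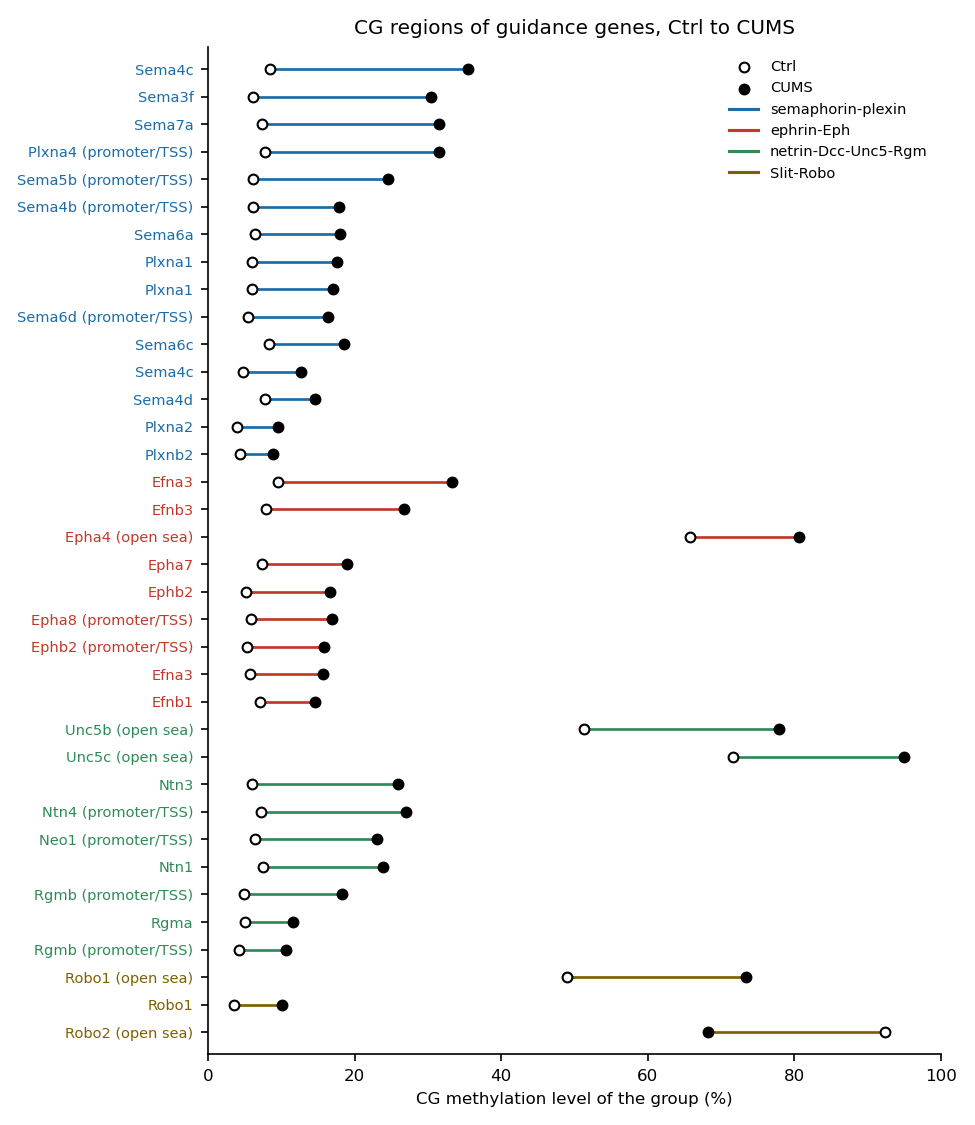
Methylation level (%) of each of the 36 CG regions of guidance genes in Ctrl (open circles) and CUMS (filled circles), 1 region per line, coloured by family; each point is a single combined value per group. Island regions start below 10% in Ctrl and move right, whereas the 5 open sea regions lie above 48.9% in Ctrl and 1 of them, in Robo2, moves left.

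The semaphorins, ligands that mostly repel, and the plexins, their receptors, were examined first. This family had 42 regions in 20 of its 29 genes. Of these regions 34 were hypermethylated (81%, beside 78.1% of all regions annotated to a gene) and 8 hypomethylated. All 15 CG regions lay in CpG islands and were hypermethylated, beside 97.8% of all island CG regions annotated to a gene. Among the ligands, the largest difference of any member was seen in Sema4c, a transmembrane semaphorin that signals through plexin B2. Its intronic CG island region at chr9:38800529-38800669 was methylated to 35.4% in CUMS compared with 8.48% in Ctrl. The difference of 26.9 points ranked 279 among the 3531 hypermethylated CG regions annotated to a gene. A second Sema4c island region, 347 bp further on, was 12.6% in CUMS and 4.75% in Ctrl. Sema3f, a secreted repellent of axons and of endothelial cells that binds neuropilin 2, had a CG region of 120 cytosines in an intron at chr8:108386244-108386663, with 30.5% in CUMS and 6.08% in Ctrl. Sema7a, the membrane-anchored semaphorin that binds integrins and plexin C1, showed 31.6% in CUMS against 7.34% in Ctrl in an intronic island region.

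At gene starts, 3 semaphorins had a CG region, and each was higher in CUMS. Sema5b, a transmembrane semaphorin with thrombospondin repeats, had a promoter region at chr11:65225348-65225481 with 24.6% in CUMS and 6.10% in Ctrl. The promoter region of Sema4b at chr1:134149251-134149348 was 17.9% methylated in CUMS and 6.19% in Ctrl. For Sema6d, a transmembrane ligand of plexin A1, the promoter region at chr3:111883221-111883449 had levels of 16.4% and 5.41%. The Sema5b window printed above had the fewest CG sites of the 8 promoters with an entry, but its region had a larger difference than those of Epha8 and Neo1.

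The plexins had 15 regions in 4 of 9 genes, 11 of them hypermethylated (73.3%, beside 78.1% of all regions annotated to a gene). Plxna4, a receptor for class 3 and class 6 semaphorins, had the longest promoter or TSS region: at chr4:61161918-61162394 the TSS, the promoter and the 5′ untranslated exon were covered by 87 CG cytosines in 477 bp, with 31.5% in CUMS and 7.80% in Ctrl. It was the only promoter or TSS CG region of a guidance gene with a difference of at least 20 points. In Plxna1, a co-receptor partner of neuropilins, 2 neighbouring island regions were 17.0% and 17.6% in CUMS and 5.93% and 6.06% in Ctrl. The lowest CG differences of the family lay in plexins as well: Plxna2 with 9.52% against 3.88%, and Plxnb2, a receptor for class 4 semaphorins, with 8.80% against 4.36%. In Plxna1, 3 regions also lie in an intron of Chchd6, and the Plxnb2 region is shared with an unnamed gene, so these regions cannot be given to 1 gene alone.

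Outside the CG context, the family had regions in both directions. A CHH region in an intron of Plxna4 at chr4:61140461-61140731 was 18.4% in CUMS and 0.172% in Ctrl, and one in Plxna2 was 16.8% and 0.258%. Lower levels in CUMS were found in a CHG region of Sema3a, the secreted ligand of neuropilin 1, with 0.400% against 7.24% in Ctrl. Sema3c and Sema5a had no region other than a hypomethylated CHH region, 0.128% against 6.001% in Sema3c and 0.0447% against 4.02% in Sema5a. In the CHG context 5 of the family's 11 regions were hypomethylated (45.5%, beside 30.7% of all CHG regions annotated to a gene).

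Ephrins are membrane-bound ligands, and the Eph receptor tyrosine kinases that bind them signal on contact between cells. This family had 36 regions in 13 of 22 genes, 31 hypermethylated (86.1%, beside 78.1% of all regions annotated to a gene) and 5 hypomethylated. The ephrins contributed 11 regions in 4 genes. Efna3 had a CG island region in an intron at chr2:174736552-174736623 with 33.2% in CUMS and 9.55% in Ctrl, and a second one 524 bp before it with 15.6% and 5.70%. All 4 CG regions of ephrins lay in islands and were higher in CUMS, beside 97.8% of all island CG regions annotated to a gene. Efnb3, a transmembrane ephrin, had 26.8% against 7.94% in its 5′ untranslated exon. Efnb1, also transmembrane, showed 14.6% in CUMS and 7.04% in Ctrl in a 5′ untranslated exon shared with the promoter of Mir3573. Efna5 had no CG region, and its 5 regions split into 3 hypermethylated and 2 hypomethylated ones.

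Among the Eph receptors, 9 of 14 genes had 25 regions, 22 of them hypermethylated (88%, beside 78.1% of all regions annotated to a gene). The gene starts of Epha8 and Ephb2 each held a CG region. The Epha8 region at chr5:149193175-149193467, across the TSS, was 16.9% methylated in CUMS and 5.80% in Ctrl over 87 cytosines. In Ephb2, a receptor for B-type ephrins, the promoter region at chr5:149077320-149077405 had 15.7% against 5.36%, and an intronic island region 832 bp away had 16.7% against 5.16%. These 3 regions of Eph receptors lay in islands. Epha4, which binds ephrins of both classes, had its region in open sea, with 80.7% in CUMS and 65.7% in Ctrl over 9 cytosines. The CHH regions included the largest non-CG difference of all members, in an intron of Epha6 at chr11:40135960-40136394, with 23.4% in CUMS and 1.60% in Ctrl. A CHH region of Ephb1 had 18.1% in CUMS and 4.49% in Ctrl, the highest Ctrl level of any non-CG member that was higher in CUMS. Epha10 had a single region, a CHG region with 0.0169% in CUMS and 4.89% in Ctrl.

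Netrins are secreted ligands, Dcc and Neo1 mediate attraction to them, and Unc5 receptors mediate repulsion. Rgma and Rgmb are membrane-anchored ligands of Neo1 and co-receptors for bone morphogenetic proteins. This group had 28 regions in 13 of 15 genes, with 24 hypermethylated (85.7%, beside 78.1% of all regions annotated to a gene). All 9 CG regions were hypermethylated, beside 87.7% of all CG regions annotated to a gene. Of the background CG regions in islands, 97.8% were hypermethylated. The netrins had island regions in 3 genes. Ntn4 had one in its promoter at chr7:28186152-28186422 with 27.0% in CUMS and 7.24% in Ctrl. The 5′ untranslated exon of Ntn3 was 26.0% against 6.001%, and that of Ntn1, which binds Dcc and Unc5b, was 23.8% against 7.49%. Ntn4 also had 2 hypomethylated regions within its introns, a CHH region with 0.0652% in CUMS and 10.6% in Ctrl and a CHG region with 0.158% and 3.75%. A further intronic CHH region of Ntn4 was higher in CUMS, with 11.3% and 1.48%, so its introns held regions of both directions.

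All 14 regions in the receptors Dcc, Neo1, Unc5a, Unc5b, Unc5c and Unc5d were higher in CUMS, beside 78.1% of all regions annotated to a gene, and each of these 6 genes had at least 1. Neo1 had a CG region over its promoter and 5′ untranslated exon at chr8:59425983-59426286, with 23.0% in CUMS and 6.46% in Ctrl over 91 cytosines. Unc5b, the Unc5 receptor known from endothelial tip cells, had an intronic open sea region at chr20:28743144-28743251, with 77.9% in CUMS and 51.3% in Ctrl over 10 cytosines. In Unc5c an intronic region of 4 cytosines had 94.9% and 71.6%, the highest CUMS level of any member and the lowest number of cytosines among the CG regions. Rgmb had 2 promoter regions 105 bp apart, the first with 10.7% in CUMS and 4.25% in Ctrl and the second, over 86 cytosines, with 18.2% and 4.85%. Rgma showed a smaller value, 11.5% against 5.08%, in an intronic island region. The netrin-G Ntng2 had a CHH region with 14.7% in CUMS and 0.0835% in Ctrl.

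The Slit ligands and their Robo receptors had 20 regions in 5 of 6 genes. Of these regions 14 were hypermethylated (70%, beside 78.1% of all regions annotated to a gene) and 6 hypomethylated. This family had the fewest CG regions, 3, none of them at a promoter or TSS, and none in a Slit gene. Robo1, a receptor for Slit ligands that is also found on endothelial cells, had the most regions of all members, 9. Its open sea CG region at chr11:11375424-11375511 was 73.4% in CUMS and 48.9% in Ctrl over 9 cytosines, and a CHG region less than 2 kb further on had 14.9% and 0.0226%, the only CHG member with at least 10 points. Its island CG region, in a 5′ untranslated exon, was 10.1% in CUMS and 3.54% in Ctrl. Robo1 also held hypomethylated regions: a CHG region with 0.206% against 9.71%, another with 0.0100% against 4.46%, and a CHH region with 0.0851% against 8.40%.

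Robo2, the second Robo receptor with a region, had the only hypomethylated CG region among the guidance genes. At chr11:12557890-12557983, in an intron, CUMS had 68.3% and Ctrl 92.3%. The difference of -24.1 points ranked 147 among the 497 hypomethylated CG regions annotated to a gene. It held 5 cytosines in 94 bp, and with at least 10 cytosines or at least 100 bp required it was no longer counted. Slit2, the Robo ligand with known effects on vessels, had the largest non-CG decrease, a CHH region in an intron at chr14:62878408-62878632 with 0.0451% in CUMS and 16.4% in Ctrl. The promoter of Slit2 held a CHG region at chr14:62956186-62956383 in a CpG island, with 7.77% in CUMS and 0.0171% in Ctrl, which was the only promoter region of a guidance gene outside the CG context. Slit3 had 5 regions, 4 hypermethylated and 1 hypomethylated.

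**Figure D3:**
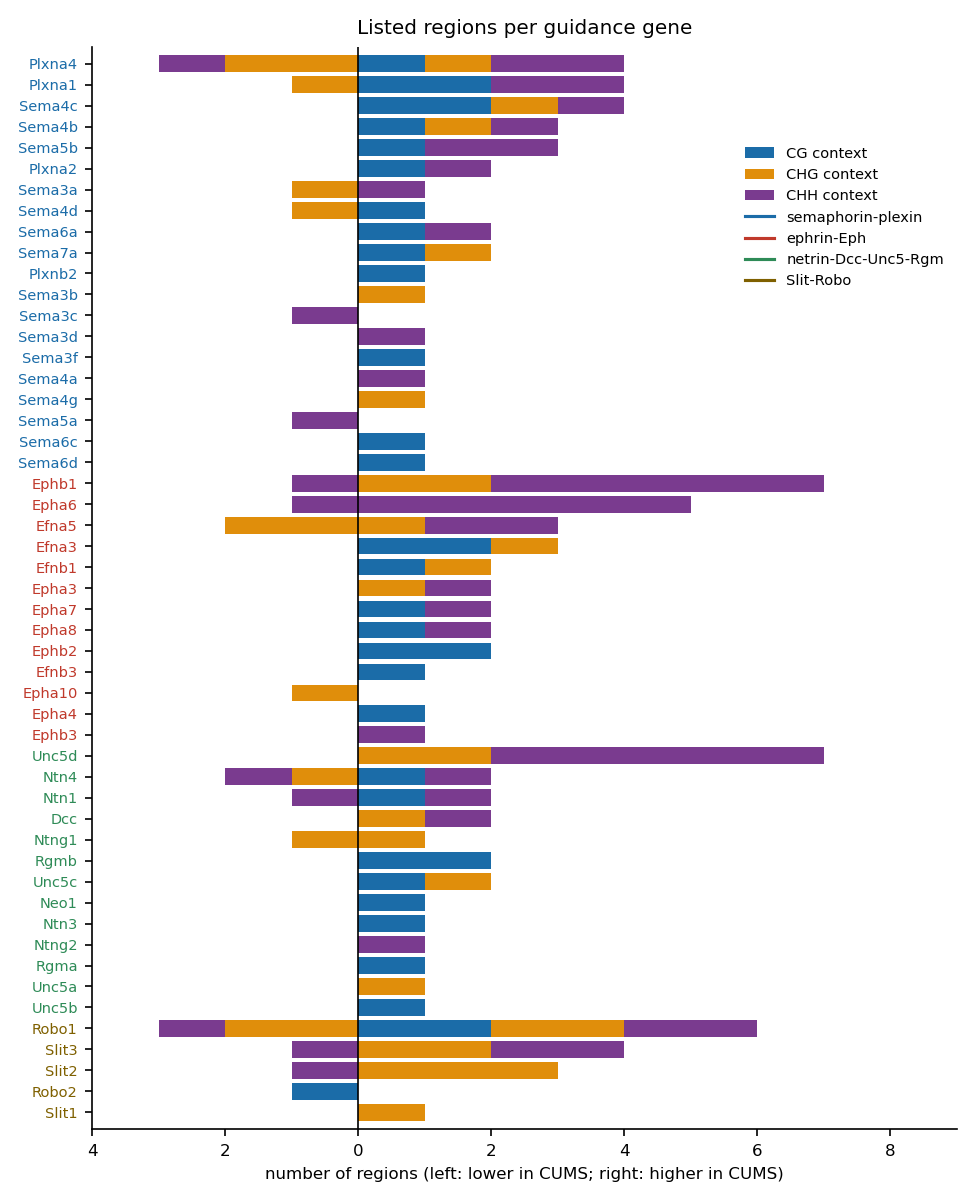
Number of listed regions per gene for the 51 guidance genes with at least 1, with hypermethylated regions to the right of 0 and hypomethylated ones to the left, coloured by cytosine context; gene names are coloured by family. Robo1 has the most regions, 9, and 4 genes (Robo2, Epha10, Sema3c and Sema5a) have bars only to the left.

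By gene, 47 of the 51 had at least 1 hypermethylated region and 17 at least 1 hypomethylated region, with 13 in both counts. By region, 78.1% of all regions annotated to a gene were hypermethylated. The same counts over all genes with a region were not made, so these are not read as a trait of guidance genes. The 4 genes with hypomethylated regions only were Epha10, Robo2, Sema3c and Sema5a, each with a single region. Of the 51 genes, 22 had 1 region and 14 had 2.

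Non-CG members had a common form: 1 group was near 0 and the other had a low level. Of the 38 CHG regions, all had a level under 1% in the lower group, with a median of 0.0288%, and a median of 4.13% in the higher group. The same held for 46 of the 52 CHH regions, with medians of 0.187% and 7.12%. Over all genes the form was alike. Hypermethylated CHG regions annotated to a gene had medians of 0.0540% in Ctrl and 4.28% in CUMS (members 0.0288% and 3.99%). For hypermethylated CHH regions these were 0.212% and 7.94% (members 0.206% and 7.47%). The non-CG members lay mostly in introns alone (81.6% of CHG and 94.2% of CHH members, beside 75.2% and 85.8% of all such regions annotated to a gene). Repeats overlapped 39.5% of the CHG members (beside 38.1%), 19 of the 52 CHH members (beside 47.3%) and 1 of the 36 CG members (beside 13.2%). An overlap with a CHH region of the full DMR list was found for 27 CHG regions, all 27 in the same direction, which is 71.1% beside 72.0% of all CHG regions annotated to a gene. Of the CG regions, 2 overlapped a CHH region (5.56%, beside 4.94%), in Efnb1 and Sema6c, and both pairs were higher in CUMS. Cytosines that escape deamination are read as methylated in every context, and the part this had in the non-CG values was not tested.

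**Figure D4:**
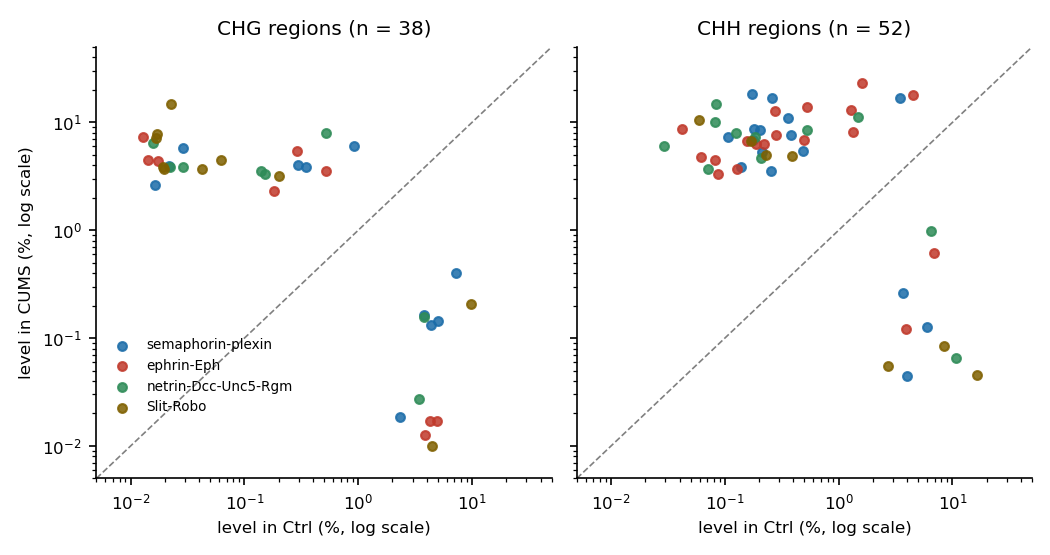
Levels of the 38 CHG and 52 CHH regions of guidance genes in Ctrl (horizontal) and CUMS (vertical), both in percent on log scales, coloured by family; the dashed line marks equal levels. Points form a cloud at the upper left (26 CHG and 42 CHH regions higher in CUMS) and a smaller one at the lower right (12 and 10), with no points on the line.

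In the 5 genes with 6 or more regions, the regions were spread over long stretches. Robo1 had 6 hypermethylated and 3 hypomethylated regions over 623 kb. Ephb1 had 7 and 1 over 303 kb, Plxna4 had 4 and 3 over 389 kb, and Epha6 had 5 and 1 over 575 kb. Unc5d, an Unc5 receptor, was the one in which all 7 were hypermethylated, over 197 kb, with CHH levels of 3.72% to 8.51% in CUMS and 0.0291% to 0.528% in Ctrl. Both directions thus occurred within 4 of these 5 genes, and in Robo1 a hypomethylated CHG region lay between hypermethylated regions. Over all regions annotated to a gene, 21.9% were hypomethylated. How often other genes with as many regions hold both directions was not counted, so this is not read as particular to these genes.

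**Figure D5:**
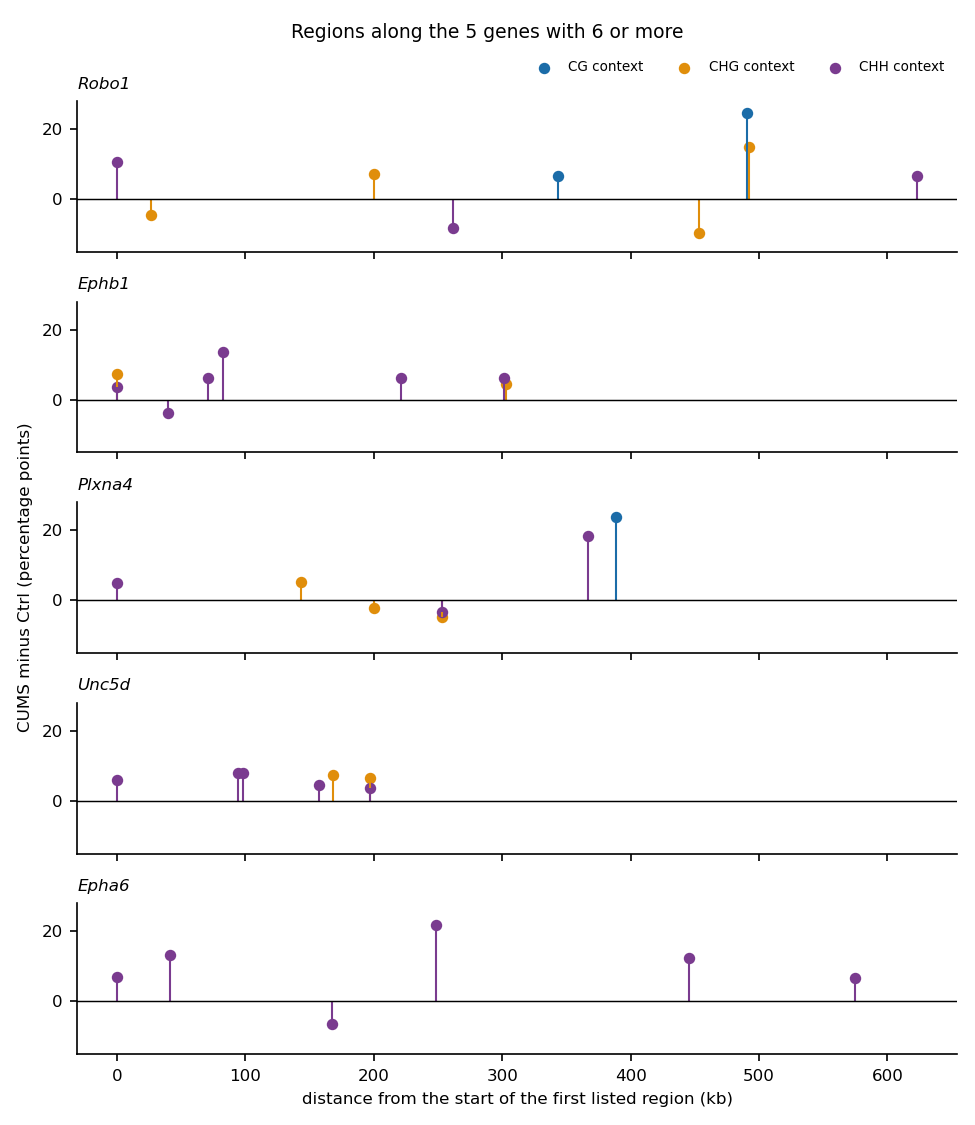
Difference in level (CUMS minus Ctrl, percentage points) of each region along the 5 guidance genes with 6 or more regions, against distance in kb from the start of the first region, coloured by context. Regions above and below 0 alternate along Robo1, and all 7 regions of Unc5d lie above 0.

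A list of 22 guidance genes with known roles in vessels was counted separately. Of these, 14 had a region (63.6%, beside 25.9% of all protein-coding genes, with the same limits on that share), 13 with a hypermethylated one and 8 with a hypomethylated one, and the 38 regions divided into 27 hypermethylated and 11 hypomethylated (71.1%, beside 78.1% of all regions annotated to a gene). The 10 CG regions of the list were all hypermethylated, beside 87.7% of all CG regions annotated to a gene. Of the background CG regions in islands, 97.8% were hypermethylated. By gene, Robo1 had 9 regions, Slit3 had 5, Slit2 and Ntn4 had 4 each, Ntn1 had 3, Sema3a, Sema4d, Sema6a and Plxna2 had 2 each, and Sema3c, Sema3d, Sema3f, Plxnb2 and Unc5b had 1 each. No region was listed for Sema3e and its receptor Plxnd1, for the artery and vein pair Efnb2 and Ephb4, or for Efna1, Epha2, Sema3g and Plxnb1. A gene without a listed region may still differ below the threshold of the list or lack coverage.

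Genes that work with the guidance receptors were counted by 2 further lists. Of 22 co-receptors and adhesion partners, 12 had a region (54.5%, beside 25.9% of all protein-coding genes, with the same limits on that share). Of their 28 regions 25 were hypermethylated (89.3%, beside 78.1%). All 9 CG regions lay in CpG islands and were hypermethylated, beside 97.8% of all island CG regions annotated to a gene. Met, the hepatocyte growth factor receptor that pairs with plexin B1, had a promoter CG region with 33.8% in CUMS and 6.57% in Ctrl. Gpc1, a heparan sulfate proteoglycan that binds Slit, had 33.4% against 7.14% at its TSS, and Vegfa, the endothelial growth factor, had 4 CG regions, all higher in CUMS. Nrp1, the semaphorin co-receptor, had a CHH region with 11.03% against 1.43%. Of 45 cytoplasmic partners, 31 had a region (68.9%, beside 25.9%, which again is not a like comparison). Of their 73 regions 58 were hypermethylated (79.5%, beside 78.1%), and of their 26 CG regions 24 (92.3%, beside 87.7%), so both shares were close to the background. Among the CG regions with a difference above 31 points were those of Pak1, a kinase downstream of Rac, with 38.9% in CUMS and 7.32% in Ctrl, of Abl2, a tyrosine kinase, with 49.4% and 17.96%, and of Limk1, the cofilin kinase, with 39.0% and 7.92%. The 2 hypomethylated CG regions lay in Kalrn, 85.9% against 95.3%, and in Trio, 76.5% against 94.8%, and both were highly methylated in Ctrl.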

How the data were processed

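Whole-genome methylation libraries of CD45-/CD31+ cells were prepared by enzymatic conversion with TET2 and APOBEC3A, per the study's methods. The submitters' processing notes name FastQC 0.11.3, fastp 0.20.0, Bismark 0.16.3 and Bowtie2. The authors called DMRs with DSS, combined the 3 samples of each group, and deposited the methylation level of each group as a fraction from 0 to 1. The deposited columns of the difference and of areaStat, a DSS region score, are the authors' own comparison and were not used. The table of the mean profile over genes was not used here. Coordinates are on mRatBN7.2.

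Levels were multiplied to percent and subtracted with Python 3.11.15 and pandas 2.3.3 (numpy 2.4.6, matplotlib 3.10.9), and the counting was tested on simulated data. A region was counted once per chromosome, start, end and context, and overlaps needed at least 1 bp. The study's methods name a difference of at least 10 points for a DMR, and the deposited list also holds smaller ones, which were kept. The annotated list holds the CG and CHG regions and only part of the CHH regions of the full list of 160692. No test was made, since no level per sample, and no read count or coverage per region, was in the tables. Unc50, Unc5cl and a pseudogene match the symbols used but are no guidance genes and were left out. Gene numbers, matched by symbol, and promoter sequences came from RefSeq (GRCr8).

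Genes were named if they had a CG region at a promoter or TSS, a hypomethylated CG region, up to 2 of the largest differences of their family, context and direction, or 6 or more regions, or if they were on the list of 22 vascular genes. Other genes, and those of the co-receptor and cytoplasmic lists, were named after their values were seen. The members and lists were chosen with earlier results of these data known. Alternatives covered differences of at least 10 and 20 points, at least 10 cytosines, at least 100 bp, joining within 1 kb, regions of a single gene, and leaving out intron-only regions or repeats.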

Additional observations from a re-analysis of the deposited data

Results flagged for a closer look

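The full DMR list holds CHH regions that were not annotated, and above they served only for the overlap of contexts. In the stretches spanned by the regions of Robo1, Ephb1, Plxna4, Unc5d and Epha6, 100 such CHH regions were found. Of the 100, 5 overlapped a CG or CHG region of a guidance gene. The number that other stretches of this length hold was not counted, so 100 is not read as high or low. Their median size by gene ran from 2.43 points in Ephb1 to 4.51 points in Unc5d. Of the 100, 67 were hypermethylated and 33 hypomethylated (67.0%), beside 63.5% of all 135823 CHH regions outside the annotated list. The share was lower than the 80.8% of the annotated CHH regions of guidance genes. In Plxna4, 10 of these CHH regions were hypermethylated and 15 hypomethylated. Its 7 annotated regions of all contexts were 4 and 3, and those in the CHH context 2 and 1, too few to compare. Outside the annotated list the numbers were 20 and 7 in Robo1, 21 and 5 in Epha6, 12 and 5 in Ephb1, and 4 and 1 in Unc5d. The differences between genes were not tested.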

How the results depend on the processing

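Over 8 alternatives and 7 results, 35 of 56 compared values were labelled unmoved and 21 moved. A count was labelled moved beyond a factor of 1.5. The label for the share of hypermethylated CG regions did not follow its distance from the reported 97.2%. A share of 88.9% at 20 points was labelled unmoved, and 100% was labelled moved. The limit of 10 points left 38 hypermethylated and 3 hypomethylated regions, 32 genes with a region and 20 co-receptor and cytoplasmic genes with a region (43 as reported). The limit of 20 points left 9 and 1 regions, 10 genes, 9 such partner genes, 5 island CG regions and 1 gene with a promoter CG region. Without intron-only regions, 28 hypermethylated regions, 1 hypomethylated region, 24 genes, 23 partner genes and 19 island CG regions were left. At least 100 bp left 15 hypomethylated and 19 island regions. Leaving out regions with a repeat, an alternative chosen after seeing the data, left 15 hypomethylated regions. The hypermethylated share of CG regions was 100% with at least 10 cytosines, at least 100 bp or no intron-only regions. Each of these limits left out the hypomethylated Robo2 region. Without intron-only regions the share rested on 19 CG regions, beside 96.3% of such CG regions annotated to a gene. For the limits on cytosines and length, no background share of CG regions is given here. The hypermethylated share of all members ran from 81.2% with regions joined (beside 77.2% of all regions annotated to a gene) to 96.6% without intron-only regions (beside 86.7%). With the limit of 10 points it was 92.7%, beside 85.1%. The background share thus rose under the same limits. The cause of these changes was not tested beyond the smaller number of regions that each limit leaves.

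No paired analysis was possible because levels were deposited as 1 value per group. For the same reason the fits with a replicate block and without each replicate were not run. Coverage of the libraries as a whole is stated in the study's methods, but the depth of a region was not in the tables, so the precision of a level is unknown. The regions of Unc5c and Robo2 rest on 4 and 5 cytosines.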
